A study of Homo sapiens with 12 samples.

Results

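The genes described here are 8 genes of the Hippo pathway's output: the coactivators YAP1 and WWTR1 (the gene of the TAZ protein), the DNA-binding factor TEAD1, the kinase LATS2, and the target genes CTGF (also CCN2), CYR61 (also CCN1), ANKRD1 and AMOTL2. They were taken by name from the gene table, which holds 38021 gene names. The rule uses no measured value, but the 8 were chosen with earlier results of these data known. All 8 were found, and all 8 were among the 16838 genes with enough counts to be tested. The row named TAZ in the table is tafazzin, an unrelated mitochondrial enzyme, and was not used for WWTR1.

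The libraries came from 786O cells, a line of clear cell renal cell carcinoma that lacks functional VHL, and from WT8 cells, which are 786O cells with wildtype VHL added back. Both lines had been transduced with a pLKO.1 lentivirus and selected with puromycin, and expressed either a control shRNA against a scrambled sequence (shControl) or an shRNA against BMAL1 (shBMAL1), a bHLH-PAS transcription factor of the circadian clock. The 4 groups, 786O shControl, 786O shBMAL1, WT8 shControl and WT8 shBMAL1, held 3 biological replicates each according to the labels. The study asked what BMAL1 contributes to gene expression driven by HIF2α, the hypoxia-inducible factor that the VHL protein marks for degradation. All 12 cultures carried the vector and the selection, and none was untransduced. The paper lists 786O cells from a cell repository and also from the laboratory that gave WT8. Which of these were used here is not given, so the expression of VHL and the history of each line cannot be told apart. The labels name no individual hairpin. In bulk RNA of a culture, fewer cells that express a gene and less RNA per cell cannot be told apart.

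In the Hippo pathway, the kinases MST1 and MST2 (genes STK4 and STK3) activate LATS1 and LATS2, which phosphorylate YAP and TAZ and keep them out of the nucleus. Unphosphorylated YAP and TAZ bind TEAD factors on DNA and activate genes such as CTGF, CYR61 and ANKRD1, and they also activate their own inhibitors LATS2 and AMOTL2. Much of this control acts on phosphorylation and location of the proteins, which RNA levels do not measure.

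Total counts per library ranged from 33182005 to 36477484, and no pair of replicates was identical. ARNTL, the table's name for BMAL1, averaged 12.1 CPM (counts scaled by library size and composition) in 786O shControl and 3.94 in 786O shBMAL1, and 9.24 in WT8 shControl and 1.66 in WT8 shBMAL1. It was thus 3.08-fold lower with shBMAL1 in 786O and 5.57-fold lower in WT8. VHL averaged 18.8 CPM in 786O shControl and 981 CPM in WT8 shControl, 52.2-fold higher in WT8. VHL was itself 1.52-fold lower with shBMAL1 in WT8, at 647 CPM, so each change with shBMAL1 in WT8 below was measured in cells that also had less VHL transcript, and the part of VHL in them was not tested. Of 6 renal epithelial markers, PAX8, PAX2, KRT8, KRT18 and CDH16 were measured in every group and LRP2 had at most 3 counts in any library. The 6 markers summed to 1203 to 1286 CPM in 786O shControl against 1588 to 1619 with shBMAL1, and to 2429 to 2494 in WT8 shControl against 1631 to 1731 with shBMAL1, so their sum moved with shBMAL1 in opposite directions in the 2 lines. Their part in the results below was not tested. The 6 markers of blood, endothelial, liver and melanocytic cells together reached at most 1.17 CPM in any library.

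On GRCh37, YAP1 lies at chr11:101981178-102104155 on the plus strand, WWTR1 at chr3:149235022-149454501 (minus), TEAD1 at chr11:12695968-12966284 (plus), LATS2 at chr13:21547175-21635725 (minus), CTGF at chr6:132269316-132272512 (minus), CYR61 at chr1:86046444-86050272 (plus), ANKRD1 at chr10:92671853-92680844 (minus) and AMOTL2 at chr3:134074189-134094321 (minus). CTGF lies wholly inside the long non-coding gene LINC01013 on the other strand, which had at most 1 count in any library. WWTR1 overlaps WWTR1-AS1 on the other strand, which had 6 to 32 counts per library, and AMOTL2 overlaps the pseudogene RPL39P5 on its own strand. YAP1, TEAD1 and LATS2 also overlap annotated non-coding genes, among them LATS2-AS1 on the other strand of LATS2, and WWTR1 overlaps further ones. Whether strand was used in counting is not given in the sources used here, so reads shared with these neighbours could not be separated.

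TEAD factors bind the motif GGAATG, which on the opposite strand of the duplex reads CATTCC. BMAL1 together with its partner CLOCK binds a motif called the E-box, CACGTG. Promoter sequence from RefSeq (GRCh38.p14), 250 bases before to 50 after an annotated start, was on hand for 6 of the 8 genes in 8 windows; CYR61 and TEAD1 had no entry in the table. Both motifs were searched on both strands. Of 35116 such windows over 27305 genes, 14% held GGAATG, 1.37% held it at least 2 times, 0.128% held it at least 3 times, and 7.26% held CACGTG. Every CACGTG also contains the shorter HIF core ACGTG on both strands, which 21.4% of windows held. The element that the paper gives for HIF2α, N(G/A)CGTG, also allows GCGTG, which was not searched. GGAATG was found in windows of 5 of the 6 genes and CACGTG in 2. The 5 sequences below are shown because they are the windows of these genes that hold a TEAD-type match; capitals mark the TEAD-type motif (on either strand) and the E-box. The first 4 are the 250 bases upstream of the start, and the last is a shorter stretch around the LATS2 start, where a match of each kind lies close together.
CTGF promoter, chr6:131951373-131951622, minus strand: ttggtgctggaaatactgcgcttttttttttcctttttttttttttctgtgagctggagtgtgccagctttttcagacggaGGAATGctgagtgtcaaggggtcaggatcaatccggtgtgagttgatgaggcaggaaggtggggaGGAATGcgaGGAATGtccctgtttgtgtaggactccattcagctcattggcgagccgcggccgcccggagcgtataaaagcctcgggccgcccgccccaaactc
ANKRD1 promoter, chr10:90921088-90921337, minus strand: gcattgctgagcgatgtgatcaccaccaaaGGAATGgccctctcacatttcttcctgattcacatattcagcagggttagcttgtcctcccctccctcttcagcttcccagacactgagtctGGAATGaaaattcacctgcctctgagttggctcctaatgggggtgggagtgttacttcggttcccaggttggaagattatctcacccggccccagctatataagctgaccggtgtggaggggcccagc
YAP1 promoter, chr11:102110197-102110446, plus strand: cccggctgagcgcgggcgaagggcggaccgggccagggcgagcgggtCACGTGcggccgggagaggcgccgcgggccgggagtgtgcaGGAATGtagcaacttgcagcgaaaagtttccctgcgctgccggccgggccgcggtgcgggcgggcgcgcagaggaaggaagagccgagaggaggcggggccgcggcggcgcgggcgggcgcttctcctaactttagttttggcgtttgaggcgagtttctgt
AMOTL2 promoter, second start, chr3:134374448-134374697, minus strand: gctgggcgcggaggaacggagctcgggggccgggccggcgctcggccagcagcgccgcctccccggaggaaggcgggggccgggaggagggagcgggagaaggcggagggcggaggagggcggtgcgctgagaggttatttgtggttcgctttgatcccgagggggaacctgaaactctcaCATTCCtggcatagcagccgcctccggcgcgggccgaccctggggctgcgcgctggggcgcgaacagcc
LATS2 around the start, chr13:21061567-21061666, minus strand: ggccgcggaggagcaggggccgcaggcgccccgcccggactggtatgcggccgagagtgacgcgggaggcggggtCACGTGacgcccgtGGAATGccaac

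CTGF held 3 TEAD-type matches, which begin 169, 104 and 95 bases before the start, and no E-box. ANKRD1 held 2, which begin 220 and 128 bases before the start, and no E-box. YAP1 held 1 TEAD-type match 162 bases before the start and an E-box 203 bases before it. LATS2 held an E-box that begins 5 bases before the start and runs across it, and a TEAD-type match from base 10 after it. The second AMOTL2 start had 1 match on the other strand, 69 bases upstream, and neither WWTR1 window had any. These are matches of letters in fixed windows; binding was not measured in these libraries.

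**Figure D1:**
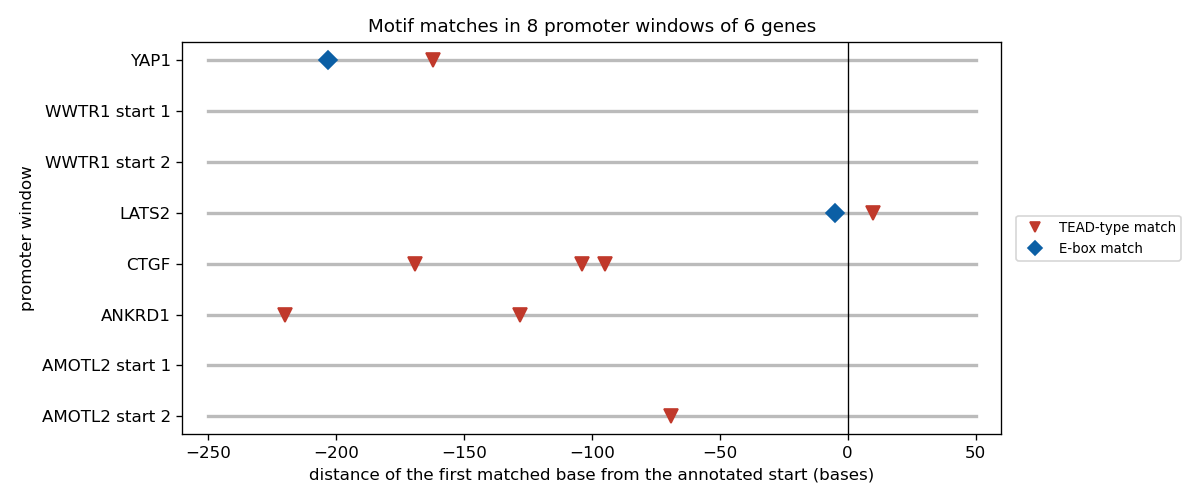
Position of TEAD-type matches (GGAATG, triangles) and E-box matches (CACGTG, diamonds) in 8 promoter windows of 6 genes, with the distance from the annotated start in bases on the horizontal axis. CTGF holds 3 TEAD-type matches, ANKRD1 holds 2, and only YAP1 and LATS2 of these genes hold an E-box.

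The change with shBMAL1 differed between the 2 lines for 5 of the 8 genes, near the 56% of all genes tested for which it differed. In WT8, all 8 genes were higher with shBMAL1, from 1.10-fold (YAP1) to 6.38-fold (ANKRD1). In 786O, 5 were higher by at most 1.24-fold (LATS2), AMOTL2 was 1.10-fold lower, and CYR61 and ANKRD1 were not called. A gene was called where its p from the quasi-likelihood test of edgeR was under 0.1 after Benjamini-Hochberg adjustment over all genes tested. In 786O, 48.9% of all genes tested were called, 24.5% higher and 24.4% lower, against 6 of 8 here. In WT8, 69.8% were called, 32.9% higher and 36.9% lower, against 8 of 8 higher here. The median log2 change of the 8 genes was 0.14 in 786O and 0.34 in WT8, against 7e-04 and -0.04 over all genes tested. The difference between the lines, tested as an interaction, was called for TEAD1, LATS2, CYR61, ANKRD1 and AMOTL2, each with the more positive change in WT8; 56% of all genes tested had a called interaction, 27.4% of all genes tested in that direction and 28.5% in the other.

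**Figure D2:**
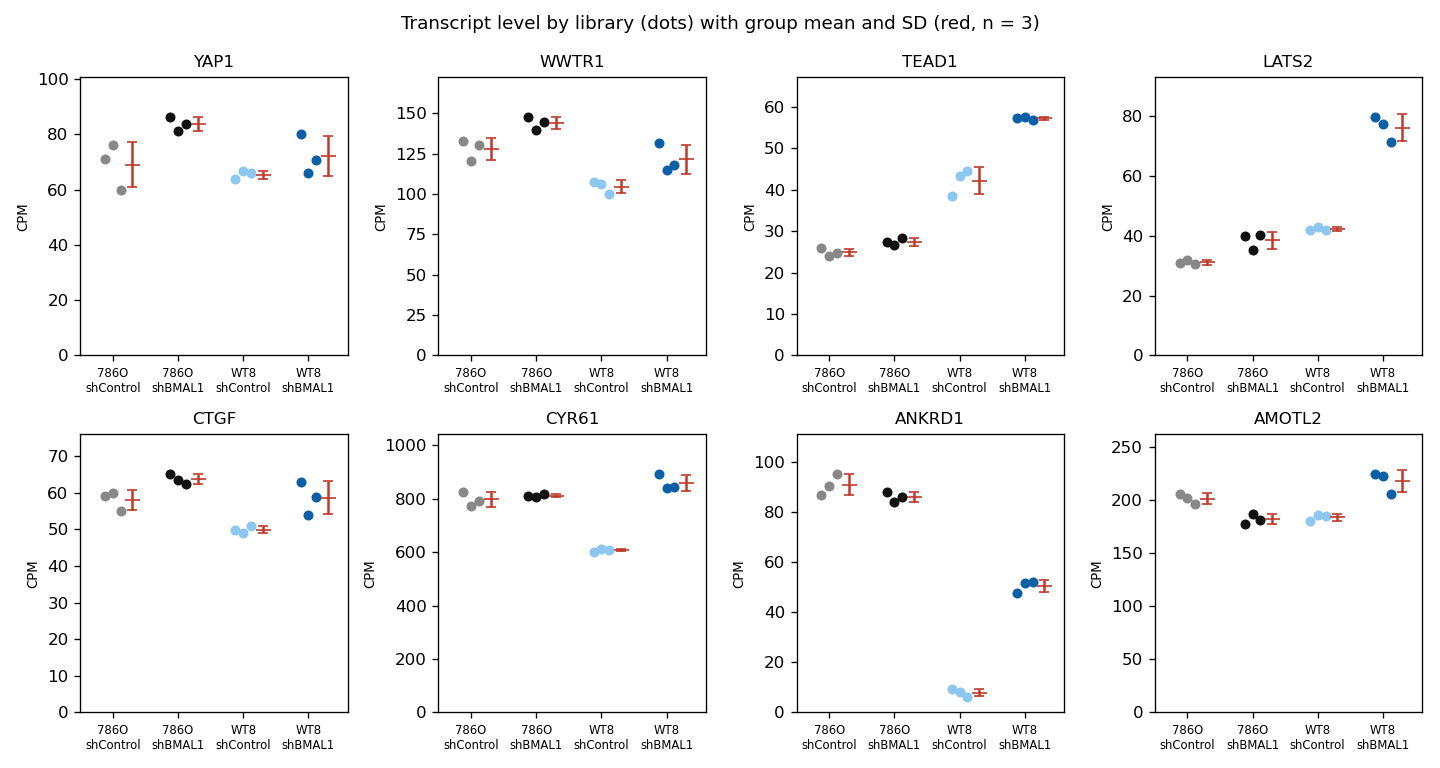
Transcript level in CPM, on linear axes from 0, of the 8 genes in each of the 12 libraries (dots), with the mean and SD of each group of 3 in red. ANKRD1 falls from 86.8 to 95.1 CPM in 786O shControl to 6.25 to 9.35 in WT8 shControl and stands at 47.7 to 52.0 in WT8 shBMAL1, while the other genes span at most 2.62-fold over all 12 libraries.

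YAP1 encodes the main coactivator. Its level was 71.0, 76.2 and 60.03 CPM in 786O shControl, 86.3, 81.1 and 83.9 in 786O shBMAL1, 63.8, 66.7 and 65.9 in WT8 shControl, and 80.1, 65.9 and 70.6 in WT8 shBMAL1. The 786O shBMAL1 libraries stood above all others, the other 3 groups overlapped, and the third 786O shControl library was the lowest of the 12. With shBMAL1, YAP1 was 1.21-fold higher in 786O (log2 change 0.28 ± 0.07 SE, edgeR adjusted p = 0.00202), and the log2 change was 0.18 without the third 786O shControl library (edgeR adjusted p = 0.0225). In WT8 it was 1.10-fold higher (0.14 ± 0.07, edgeR adjusted p = 0.0802), a call that was lost in DESeq2 (adjusted p = 0.134) and without any of the 3 WT8 shControl libraries (edgeR adjusted p = 0.211, 0.119 and 0.138) or the first WT8 shBMAL1 library, where the log2 change was 0.07 (edgeR adjusted p = 0.410). The interaction was -0.14 ± 0.10 (edgeR adjusted p = 0.262), and was called without the second 786O shControl library (-0.21) or the first WT8 shBMAL1 library (-0.21).

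WWTR1, which encodes TAZ, the paralog of YAP, was the more abundant coactivator transcript. Its level was 133, 121 and 130.1 CPM in 786O shControl, 148, 139.8 and 144 in 786O shBMAL1, 108, 106 and 99.996 in WT8 shControl, and 131, 115 and 118 in WT8 shBMAL1. Both shBMAL1 groups lay wholly above their own shControl groups. WWTR1 was 1.13-fold higher with shBMAL1 in 786O (log2 change 0.17 ± 0.05, edgeR adjusted p = 0.00624) and 1.16-fold higher in WT8 (0.21 ± 0.05, edgeR adjusted p = 4.12e-04). The interaction was 0.04 ± 0.07 (edgeR adjusted p = 0.652).

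TEAD1, one of the TEAD factors that carry YAP and TAZ to DNA, was higher in WT8 than in 786O throughout. Its level was 25.9, 24.1 and 24.6 CPM in 786O shControl, 27.4, 26.6 and 28.4 in 786O shBMAL1, 38.5, 43.3 and 44.6 in WT8 shControl, and 57.3, 57.6 and 56.9 in WT8 shBMAL1. No group overlapped another. With shBMAL1 it was 1.36-fold higher in WT8 (log2 change 0.44 ± 0.06, edgeR adjusted p = 1.44e-07). In 786O it was 1.10-fold higher (0.14 ± 0.07, edgeR adjusted p = 0.0857), and this call was lost with no filter on low counts (edgeR adjusted p = 0.152) and without 7 of the 12 libraries in turn: the second or the third 786O shControl library, the first or the third 786O shBMAL1 library, or any WT8 shBMAL1 library (log2 changes 0.11 to 0.14 without each). The interaction was 0.30 ± 0.09 (edgeR adjusted p = 0.00661).

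LATS2, the kinase that phosphorylates YAP and TAZ and is itself one of their targets, was highest in WT8 shBMAL1. Its level was 31.0, 31.9 and 30.4 CPM in 786O shControl, 40.0, 35.3 and 40.3 in 786O shBMAL1, 41.9, 42.9 and 42.0 in WT8 shControl, and 79.7, 77.5 and 71.2 in WT8 shBMAL1. The groups did not overlap. LATS2 was 1.24-fold higher with shBMAL1 in 786O (log2 change 0.31 ± 0.06, edgeR adjusted p = 1.29e-04) and 1.80-fold higher in WT8 (0.85 ± 0.06, edgeR adjusted p = 9.46e-15). The interaction was 0.54 ± 0.09 (edgeR adjusted p = 2.70e-06).

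CTGF, a secreted matricellular protein and a widely used readout of YAP, varied 1.33-fold over the 12 libraries. Its level was 59.2, 60.02 and 55.0 CPM in 786O shControl, 65.2, 63.6 and 62.4 in 786O shBMAL1, 49.9, 49.0 and 50.8 in WT8 shControl, and 62.9, 54.0 and 59.0 in WT8 shBMAL1. The WT8 shControl libraries were the lowest 3 of the 12. With shBMAL1 CTGF was 1.18-fold higher in WT8 (log2 change 0.23 ± 0.06, edgeR adjusted p = 6.30e-04). In 786O it was 1.10-fold higher (0.13 ± 0.06, edgeR adjusted p = 0.0581), and that call was lost without the third 786O shControl library (0.09), the first 786O shBMAL1 library (0.11) or the second one (0.13). The interaction was 0.10 ± 0.08 (edgeR adjusted p = 0.327), and was called without the second WT8 shBMAL1 library (0.17, edgeR adjusted p = 0.0991).

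CYR61, also matricellular and a partner of CTGF in the CCN family, was the most abundant of the 8 transcripts. Its level was 828, 774 and 792 CPM in 786O shControl, 811, 808 and 818 in 786O shBMAL1, 602, 612 and 609.7 in WT8 shControl, and 893, 839 and 843 in WT8 shBMAL1. The WT8 shControl libraries stood below all others, and the 2 groups of 786O overlapped. In WT8 CYR61 was 1.41-fold higher with shBMAL1 (log2 change 0.50 ± 0.04, edgeR adjusted p = 3.10e-13), and in 786O the log2 change was 0.03 ± 0.04 (edgeR adjusted p = 0.647). The interaction was 0.47 ± 0.06 (edgeR adjusted p = 9.53e-09).

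ANKRD1, a nuclear ankyrin repeat protein induced by YAP in many cell types, varied far more than the others, 15.2-fold over the 12 libraries. Its counts were 2974, 3161 and 3344 in 786O shControl, 3062, 2912 and 2992 in 786O shBMAL1, 344, 280 and 230 in WT8 shControl, and 1796, 1933 and 1944 in WT8 shBMAL1. In CPM these were 86.8, 90.4 and 95.1, then 87.9, 83.8 and 86.0, then 9.35, 8.12 and 6.25, and then 47.7, 51.7 and 52.0. The 786O groups overlapped, WT8 shControl lay far below them, and WT8 shBMAL1 lay between. With shBMAL1 ANKRD1 was 6.38-fold higher in WT8 (log2 change 2.67 ± 0.08, edgeR adjusted p = 8.74e-23), the 555th largest change of the 16838 genes tested, and in 786O the log2 change was -0.08 ± 0.07 (edgeR adjusted p = 0.368). The interaction was 2.75 ± 0.11 (edgeR adjusted p = 6.80e-20).

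AMOTL2, an angiomotin family protein that binds YAP and restrains it, was the single gene of the 8 that was called lower with shBMAL1 in one line and higher in the other. Its level was 206, 202 and 196 CPM in 786O shControl, 178, 187 and 181 in 786O shBMAL1, 180.2, 186 and 185 in WT8 shControl, and 225, 223 and 206 in WT8 shBMAL1. In each line the shBMAL1 libraries did not overlap the shControl libraries. AMOTL2 was 1.10-fold lower in 786O (log2 change -0.14 ± 0.04, edgeR adjusted p = 0.00802) and 1.19-fold higher in WT8 (0.24 ± 0.04, edgeR adjusted p = 8.86e-06), and the interaction was 0.39 ± 0.06 (edgeR adjusted p = 2.31e-06).

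**Figure D3:**
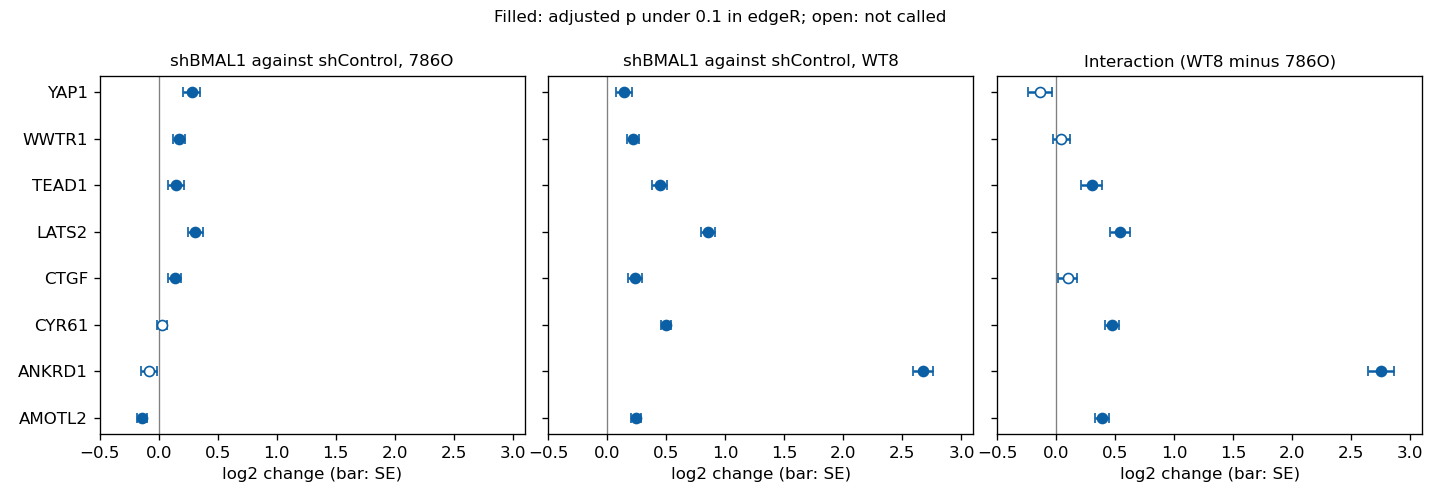
Log2 change with shBMAL1 in 786O and in WT8, and the interaction between them, for the 8 genes, with standard errors as bars; filled points were called at an adjusted p under 0.1 in edgeR. All 8 points are filled in WT8, ANKRD1 stands apart at 2.67, and in 786O no change exceeds 0.31 in size.

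With shControl, WT8 differed from 786O in 7 of the 8 genes, against 79.5% of all genes tested; 2 were higher in WT8 and 5 lower, against 39.3% and 40.2% of all genes. The median log2 change of the 8 was -0.17, against 6e-04 over all genes tested. TEAD1 was 1.70-fold higher in WT8 (log2 change 0.76 ± 0.07, edgeR adjusted p = 9.44e-13) and LATS2 1.36-fold higher (0.44 ± 0.06, edgeR adjusted p = 1.02e-07). ANKRD1 was 11.5-fold lower (-3.52 ± 0.08, edgeR adjusted p = 2.20e-26), CYR61 1.31-fold lower (-0.39 ± 0.04, edgeR adjusted p = 7.62e-11) and WWTR1 1.22-fold lower (-0.29 ± 0.05, edgeR adjusted p = 5.04e-06). CTGF was lower by 0.22 on the log2 scale and AMOTL2 by 0.13, and neither was called when libraries were scaled by their totals alone (edgeR adjusted p = 0.108 and 0.801). That scaling moved the median of all genes by 0.12, it turned the log2 change of YAP1, -0.08 and not called, to 0.04, and it left that of WWTR1 called at -0.17. YAP1 was called without the third 786O shControl library (-0.17). These values share the WT8 shControl libraries with the shBMAL1 comparison in WT8, so a gene low in those libraries is low in the one and raised in the other.

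With shBMAL1, WT8 differed from 786O in all 8 genes, against 73% of all genes tested; 4 were higher in WT8 and 4 lower, against 36% and 37% of all genes. TEAD1 was 2.09-fold higher in WT8, LATS2 1.98-fold, AMOTL2 1.20-fold and CYR61 1.06-fold, while ANKRD1 was 1.70-fold lower, WWTR1 1.19-fold, YAP1 1.16-fold and CTGF 1.09-fold. The log2 changes were 1.06 ± 0.06 for TEAD1, 0.98 ± 0.06 for LATS2, 0.26 ± 0.04 for AMOTL2 and -0.77 ± 0.07 for ANKRD1. The CYR61 call (edgeR adjusted p = 0.0784) was lost without any of the 3 786O shBMAL1 libraries or the first WT8 shBMAL1 library, with log2 changes of 0.05 to 0.09, and with no filter on low counts (0.08, edgeR adjusted p = 0.105). The CTGF call (edgeR adjusted p = 0.0607) was lost without the first or second 786O shBMAL1 library or the second or the third WT8 shBMAL1 library, with log2 changes of -0.06 to -0.12. Scaling by totals alone ended the calls of YAP1 (edgeR adjusted p = 0.138) and CTGF (edgeR adjusted p = 0.806), and moved the log2 changes of WWTR1 from -0.25 to -0.14 and of CYR61 from 0.08 to 0.18, both still called.

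Levels of different genes were compared only after division by the length of the Ensembl canonical transcript, in CPM per kilobase; which transcripts the cells used was not measured. In 786O shControl the order was CYR61 at 350.3, ANKRD1 at 50.7, AMOTL2 at 41.3, WWTR1 at 25.4, CTGF at 24.8, YAP1 at 12.8, LATS2 at 5.61 and TEAD1 at 2.64. The WWTR1 and CTGF values, 25.4 ± 1.29 and 24.8 ± 1.15 (SD, n = 3), did not differ beyond their spread. In WT8 shControl ANKRD1 was at 4.42 ± 0.87, the last in the order beside TEAD1 at 4.48 ± 0.35, and in WT8 shBMAL1 it was at 28.2 and stood next after CYR61 and AMOTL2.

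The other genes of the pathway were taken as fixed lists and are described by counts of called genes. Of the other TEAD genes, TEAD4 had the highest level per kilobase, 21.0 CPM in 786O shControl against 2.64 for TEAD1, 2.36 for TEAD3 and 0.10 for TEAD2. The canonical lengths used were 1710 bases for TEAD4 and 9417 for TEAD1. Before division by length, TEAD4 averaged 35.8 CPM and TEAD1 24.9 CPM in 786O shControl. TEAD4 was higher with shBMAL1 in both lines (log2 change 0.45 ± 0.06 in 786O and 0.74 ± 0.06 in WT8), with an interaction of 0.29 ± 0.08 (edgeR adjusted p = 0.00269). TEAD2 had 7 to 8 counts per library in 786O shControl and 0 to 3 with shBMAL1, against 173 to 198 in WT8 shControl and 137 to 179 with shBMAL1. Its log2 change in WT8 against 786O with shControl was 4.53 ± 0.27 (edgeR adjusted p = 2.24e-17). TEAD3 was called in neither line with shBMAL1 and was lower in WT8 (-0.50 ± 0.15). VGLL4, a cofactor that competes with YAP for TEAD, was lower with shBMAL1 in WT8 (-0.64 ± 0.10, edgeR adjusted p = 4.55e-07) and not called in 786O (-0.08 ± 0.09), with an interaction of -0.56 ± 0.13 (edgeR adjusted p = 6.02e-04). VGLL1 and VGLL3 had 0 counts and VGLL2 at most 1 count per library, and they were not tested.

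The kinase cassette upstream of YAP had 10 genes besides LATS2, all tested. With shBMAL1, 1 was higher and 4 were lower in 786O, and 4 were higher and 3 lower in WT8, with median log2 changes of -0.10 and 0.07. Among all genes tested 24.5% were higher and 24.4% lower in 786O, and 32.9% and 36.9% in WT8, so 5 of 10 and 7 of 10 called were near the overall 48.9% and 69.8%. TAOK3, a kinase that activates MST1 and MST2, was lower in both lines (-1.08 ± 0.09 in 786O and -1.07 ± 0.10 in WT8, interaction 0.01 ± 0.14). LATS1, the paralog of LATS2, was also lower in both (-0.22 ± 0.06 and -0.23 ± 0.06), where LATS2 was higher. SAV1, the scaffold of the MST kinases, was lower in 786O (-0.44 ± 0.10) and higher in WT8 (0.37 ± 0.09), with an interaction of 0.81 ± 0.14 (edgeR adjusted p = 8.54e-06). STK3 was higher in both lines (0.15 ± 0.07 and 0.50 ± 0.07), and STK4 was higher in WT8 (0.36 ± 0.07). In 786O the count of called cassette genes fell from 5 to 3 without the second shControl library. Between lines with shControl, 3 were higher in WT8 and 5 lower, against 39.3% and 40.2% of all genes, among them MOB1B (0.59 ± 0.13), SAV1 (0.57 ± 0.10), TAOK1 (-0.56 ± 0.08) and TAOK3 (-0.54 ± 0.09).

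Among 13 regulators above the cassette, 5 were higher and 5 lower with shBMAL1 in 786O, and 8 were higher and 4 lower in WT8, with median log2 changes of 0.00 and 0.31. The shares over all genes tested were 24.5% and 24.4% in 786O and 32.9% and 36.9% in WT8. FAT1, an atypical cadherin, was lower in both lines (-0.90 ± 0.14 and -1.03 ± 0.14), and DCHS1, a cadherin that binds FAT4, was higher in both (1.07 ± 0.19 and 1.03 ± 0.19) from a low level of 1.97 CPM in 786O shControl. AMOT, the angiomotin related to AMOTL2, was lower with shBMAL1 in 786O (-0.86 ± 0.12) and higher in WT8 (0.52 ± 0.18), with an interaction of 1.39 ± 0.21 (edgeR adjusted p = 9.26e-07). AMOT averaged 15.4, 8.47, 1.49 and 2.14 CPM in 786O shControl, 786O shBMAL1, WT8 shControl and WT8 shBMAL1. NF2, the tumour suppressor merlin, was higher in both lines (0.14 ± 0.05 and 0.56 ± 0.05), as was FRMD6 (0.14 ± 0.06 and 0.69 ± 0.06). AJUBA, a LIM protein that inhibits LATS kinases, was lower in both (-0.78 ± 0.05 and -0.28 ± 0.05). With shControl, 8 of the 13 were lower in WT8 than in 786O and 2 were higher, against 40.2% and 39.3% of all genes; AMOT (-3.37 ± 0.14), AMOTL1 (-1.97 ± 0.10) and FAT4 (-1.11 ± 0.10) were among the lower ones and LIMD1 (1.04 ± 0.08) among the higher.

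**Figure D4:**
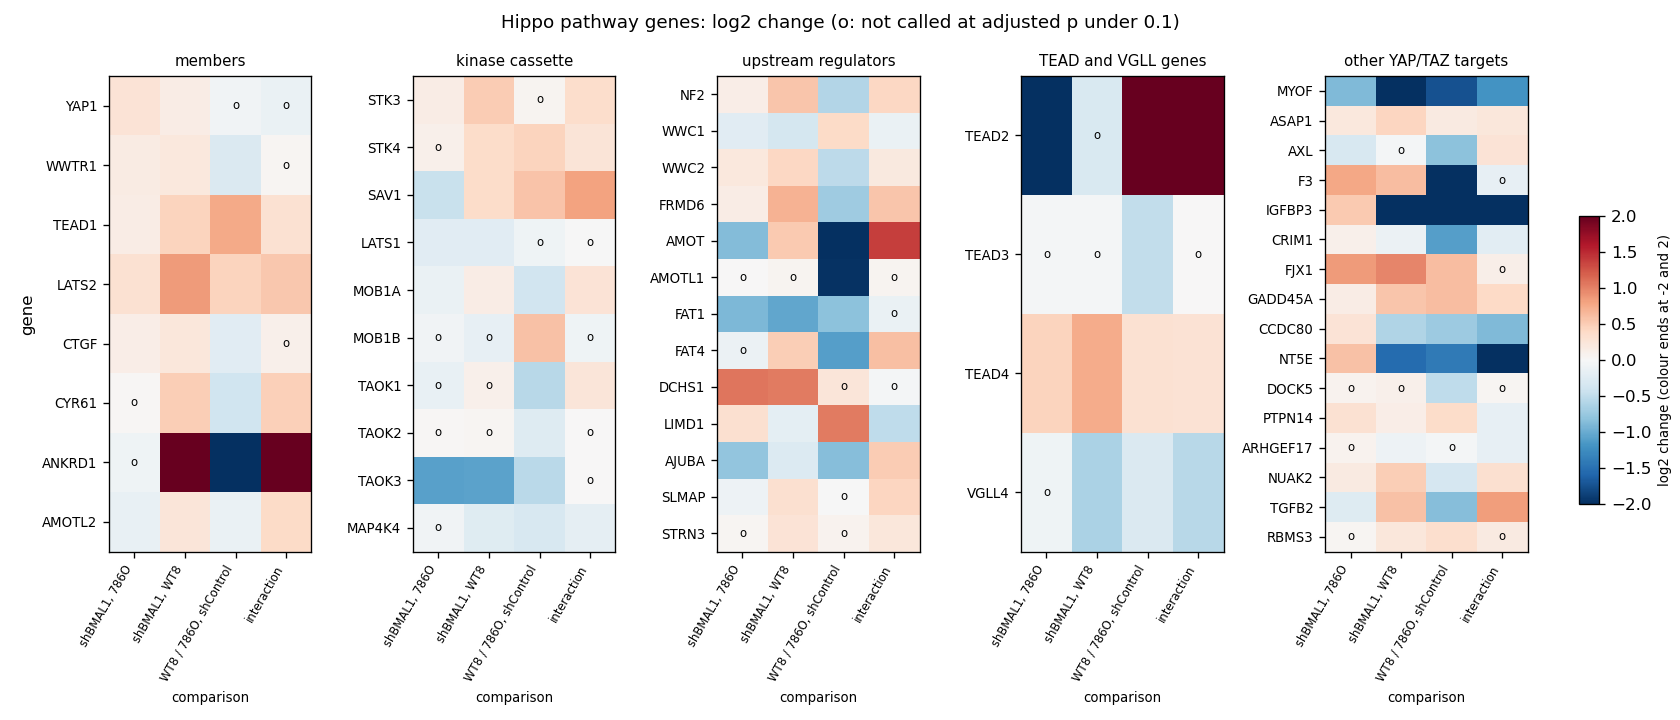
Log2 change of each tested gene of the 5 pathway lists in 4 comparisons (columns), in colour from -2 (blue) to 2 (red), with an o where edgeR's adjusted p was 0.1 or more. Values beyond -2 or 2 take the end colour. The column for shBMAL1 in WT8 is on the red side for all 8 genes of the first panel. It is palest for YAP1 (0.14) and at the colour end for ANKRD1 (2.67). The other targets in the last panel hold both colours.

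The remaining targets of YAP and TAZ were called in both directions in each line. Of 17 further targets, 16 were tested and FOXF2 had at most 2 counts per library. With shBMAL1, 10 were higher and 3 lower in 786O, and 8 were higher and 6 lower in WT8, with median log2 changes of 0.16 and 0.12, against 24.5% higher and 24.4% lower among all genes in 786O and 32.9% and 36.9% in WT8. Their interactions were called positive for 5 and negative for 7, against 27.4% and 28.5% of all genes. In WT8 against 786O with shControl 5 were higher and 10 lower, with a median of -0.62, against 39.3% and 40.2% of all genes. With shBMAL1 5 were higher and 9 lower, against 36% and 37%.

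FJX1, a secreted kinase family member, was higher with shBMAL1 in both lines (log2 change 0.85 ± 0.06 in 786O and 0.97 ± 0.06 in WT8), as was F3, which encodes tissue factor (0.78 ± 0.06 and 0.61 ± 0.10). F3 averaged 81.5, 140 and 3.70 CPM in 786O shControl, 786O shBMAL1 and WT8 shControl and 5.66 CPM in WT8 shBMAL1, and was 22.0-fold lower in WT8 than in 786O with shControl. MYOF, a membrane repair protein, was lower in both lines (-0.88 ± 0.05 and -2.09 ± 0.05), and more so in WT8 (interaction -1.20 ± 0.07). IGFBP3, which binds insulin-like growth factors, averaged 428, 613, 105 and 17.7 CPM in the same order of groups. It was higher with shBMAL1 in 786O (0.52 ± 0.05) and lower in WT8 (-2.57 ± 0.06), with an interaction of -3.09 ± 0.08 (edgeR adjusted p = 1.36e-27). NT5E, the ectonucleotidase CD73, went the same ways (0.59 ± 0.05 and -1.54 ± 0.06, interaction -2.13 ± 0.08), and so did CCDC80, a secreted matrix protein (0.27 ± 0.04 and -0.61 ± 0.04, interaction -0.88 ± 0.06). ANKRD1 and IGFBP3 were thus both lower in WT8 than in 786O with shControl, and with shBMAL1 in WT8 the one was higher and the other lower still.

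Of the 4 other CCN genes, NOV (CCN3) was lower with shBMAL1 in WT8 (log2 change -0.95 ± 0.11, edgeR adjusted p = 1.60e-09), where CTGF and CYR61 were higher. It averaged 3.59, 3.34, 14.5 and 7.55 CPM in 786O shControl, 786O shBMAL1, WT8 shControl and WT8 shBMAL1. WISP2 had at most 27 counts in any library, and WISP1 and WISP3 had at most 2 and were not tested. The 2 genes tested, NOV and WISP2, were both called lower with shBMAL1 in WT8, against 36.9% of all genes. In 786O 0 of the 2 were called, against 48.9% of all genes.

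Each gene was also compared with 12947 genes by the root mean square difference of log2 CPM, centred per gene, over the 12 libraries. For YAP1 the nearest were CTGF, ST3GAL2 and PPP6R2, which were tied at this precision (0.08 each, where the SD of the YAP1 profile itself was 0.17). For ANKRD1 the nearest were SKA1 (0.12), a kinetochore protein, CHAF1B (0.20), a chromatin assembly factor, and BLM (0.21), a DNA helicase, where the SD of the ANKRD1 profile was 1.503. SKA1 averaged 13.9, 11.7, 1.05 and 6.96 CPM and CHAF1B averaged 54.8, 48.4, 5.74 and 35.2 CPM in 786O shControl, 786O shBMAL1, WT8 shControl and WT8 shBMAL1. The genes nearest to LATS2 were KRT80, POLR1E and ATP7B, and those nearest to TEAD1 were UCP2, MREG and RGPD5. For the other 4 genes the nearest were RPN1, GDE1 and POLR3F (WWTR1), PSMF1, ZNF292 and CIC (CTGF), SF3B3, SRPRA and FUCA2 (CYR61), and PAF1, TUBGCP2 and DAG1 (AMOTL2), all within 0.06. The profiles of these 4 genes varied little themselves, with SD from 0.116 (AMOTL2) to 0.2035 (CYR61). Among the 8 themselves, TEAD1 and LATS2 differed by 0.19 and CTGF and WWTR1 by 0.08, while ANKRD1 differed from each of the other 7 by 1.27 to 1.73. These distances are descriptions over 12 libraries that share their groups.

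**Figure D5:**
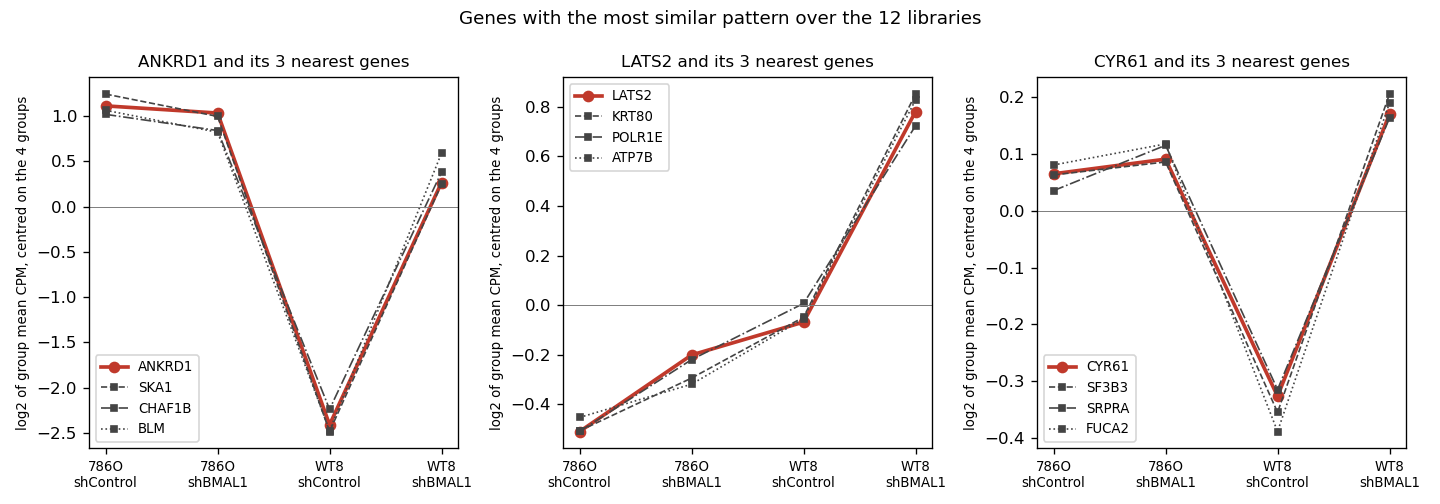
Log2 of the mean CPM of each group, centred on the 4 groups, for ANKRD1, LATS2 and CYR61 (red) and the 3 genes nearest to each over the 12 libraries (grey squares). The vertical scales differ; ANKRD1 and its 3 nearest genes share the low value in WT8 shControl and the partial return in WT8 shBMAL1.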

How the data were processed

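RNA was sequenced from 12 cultures, 3 in each of the 4 groups, which were taken from the sample titles. The labels name a stranded mRNA library kit. Per the study's methods, the authors sequenced the libraries from both ends and used SeqMan NGen 17 for alignment to GRCh37 and ArrayStar 17 for counting; the submitters' processing notes name STAR, DESeq2 and hg38 instead. The annotation, the use of strand and the treatment of multiply aligned reads are not given in the sources used here. The deposited values are estimated counts per gene: 0.028 stands in for 0, and 5.67% of the other values are not whole, although all values of the 8 genes are. The design assumed whole counts; values were summed per gene name and rounded before the count test.

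Counts were fitted in edgeR 4.0.16 (R 4.3.3; TMM scaling, filterByExpr, quasi-likelihood F-test with robust dispersions, two-sided) with a mean per group over all 12 libraries. The filter kept 16838 of 26925 genes with a count. P-values were adjusted by the Benjamini-Hochberg method over all genes tested and called under 0.1. CPM were scaled by TMM, and SD are over 3 libraries. Each edgeR SE was back-calculated from the reported log2 change and its quasi-likelihood F value, and was not read from the fitted coefficients. The fit was tested on simulated data for shBMAL1 against shControl in 786O, in which 200 genes were changed. In the real comparison 48.9% of genes tested were called, so the simulation does not cover changes this widespread. Libraries held 33182005 to 36477484 counts, and replicates differed by more than counting error (chi-square per gene 4.30 to 11.7). Genes named were the 8 members, up to 4 called genes of largest change per list and comparison with a mean of at least 50 counts, the 3 genes of nearest pattern per member, and the targeted genes. Untested genes of the lists and genes that overlap a member are named beyond that rule. Members and lists were chosen with earlier results of these data known. Positions are from GENCODE 44 on GRCh37 and promoters from RefSeq on GRCh38.p14. Alternatives tried were DESeq2 1.42.0, RLE size factors, library totals, no filter, a fold change over 1.5, the compared groups alone, a replicate block and leaving out each library.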

Additional observations from a re-analysis of the deposited data

Results flagged for a closer look

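For 5 of the 8 genes the change with shBMAL1 differed between WT8 and 786O by the interaction test in edgeR. The difference of the log2 changes, WT8 minus 786O, was 2.75 for ANKRD1, 0.54 for LATS2, 0.47 for CYR61, 0.39 for AMOTL2 and 0.30 for TEAD1. For ANKRD1 and CYR61 the change was called in WT8 and not in 786O, for AMOTL2 the signs were opposite, and for LATS2 and TEAD1 both changes were higher with shBMAL1. An interaction was called for 56% of all genes tested, so 5 of 8 was near that share. By direction, 27.4% of all genes tested had a positive one and 28.5% a negative one. BMAL1 transcript was itself 3.08-fold lower in 786O and 5.57-fold lower in WT8, and VHL transcript was 1.52-fold lower with shBMAL1 in WT8. Their part in these differences was not tested.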

How the results depend on the processing

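Requiring a fold change over 1.5 in the test left 990 genes called for shBMAL1 in 786O, 4313 for shBMAL1 in WT8, 6993 for WT8 against 786O with shControl, 5023 with shBMAL1 and 3134 for the interaction, with 0, 2, 2, 3 and 1 of the 8 genes among them. Under every other alternative the counts of genes called and of the 8 genes called stayed within 1.5 times their values. Leaving out 1 library at a time gave 4 to 6 of the 8 genes called in 786O, 7 to 8 in WT8, 7 to 8 and 6 to 8 between lines, and 5 to 6 for the interaction. Of 712 values for single genes under alternatives other than the fold change, 675 kept direction and call, 30 lost the call, 4 gained it and 3 changed sign. The changes of sign were of values that were not called: YAP1 in WT8 against 786O with shControl, to 0.0411 with library totals only, CYR61 in 786O, which ranged from -0.0005 to 0.0485 without 1 library, and the WWTR1 interaction, which ranged from -0.0059 to 0.0962. VHL in 786O, a check of the labels, ranged from -0.0284 to 0.1132. Deviations of libraries from their group means correlated at -0.0966 to 0.0872 for the same replicate number, and at -0.1339 to 0.0984 for different numbers. No deviation shared by number was thus seen, which cannot show how the cultures were matched. With the replicate block, 8055, 11622, 13268, 12161 and 9246 genes were called in the 5 comparisons, and 5, 8, 7, 8 and 5 of the 8 genes; TEAD1 in 786O alone lost its call among them (adjusted p = 0.101). The interaction needs all 4 groups, so it has no value with the compared groups alone. What could be called depended on the SE of each gene.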

Other observations

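The 10 genes of the actin cytoskeleton and of serum response factor, a factor that shares some targets with YAP, showed both directions. With shBMAL1, 4 were higher and 2 lower in 786O, and 4 were higher and 4 lower in WT8, with median log2 changes of 0.08 and -0.09. The 6 and 8 of 10 called were near the 48.9% and 69.8% of all genes tested. CNN1, a smooth muscle calponin, was higher in 786O (log2 change 2.29 ± 0.17) and not called in WT8 (-0.11 ± 0.16), with an interaction of -2.40 ± 0.24 (edgeR adjusted p = 8.96e-11). ACTA2, smooth muscle actin, was higher in 786O (0.49 ± 0.12) and lower in WT8 (-1.10 ± 0.17). MKL1, a coactivator of serum response factor, was higher in 786O (0.55 ± 0.06) and in WT8 (0.21 ± 0.06). TAGLN was lower in both (-0.95 ± 0.13 and -0.49 ± 0.09). VCL, vinculin, was also lower in both (-0.26 ± 0.04 in 786O and -0.45 ± 0.04 in WT8). TPM1, a tropomyosin, was lower in WT8 (-0.54 ± 0.04) and not called in 786O (-0.06 ± 0.04). With shControl, 7 of the 10 were lower in WT8 than in 786O and 3 were higher, against 40.2% and 39.3% of all genes, among them TPM1 (-1.89 ± 0.04), ACTA2 (-1.77 ± 0.14), TAGLN (2.25 ± 0.11) and CNN1 (1.23 ± 0.18).

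Of the 5 renal epithelial markers tested, 4 were higher and 1 was lower with shBMAL1 in 786O, and all 5 were lower in WT8, against 24.5% higher and 24.4% lower among all genes in 786O and 36.9% lower in WT8. CDH16, kidney-specific cadherin, averaged 9.65, 19.1, 73.6 and 9.21 CPM in 786O shControl, 786O shBMAL1, WT8 shControl and WT8 shBMAL1, with an interaction of -3.99 ± 0.12 (edgeR adjusted p = 2.64e-25). Of 6 markers of other cell types only PECAM1 was tested, at 0 counts per library in 786O shControl and 1 to 5 with shBMAL1, and at 21 to 32 in WT8 shControl and 6 to 15 with shBMAL1.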
